A study of Mus musculus with 6 samples.

Results

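The genes described here encode the subunits of the respiratory chain and ATP synthase in the mouse ovary, split by the genome that carries them. Members were the genes of the deposited count table whose symbols begin mt-Nd, mt-Co, mt-Cytb or mt-Atp (mitochondrial class), or are an Nduf subunit, Sdha to Sdhd, or begin Uqcr, Cox4 to Cox8 or Atp5 (nuclear class). Names of pseudogenes ending in -ps were left out, and a mean of at least 1 CPM (counts scaled to library size) over the libraries was required. This gave 93 of 51826 genes: 13 mitochondrial members and 80 nuclear members. Of 97 genes that matched by name, Cox8c and Cox7b2 had no counts, Cox8b had 0.118 CPM, and Cox6a2 fell just short at 0.907 CPM. The members nearest above the limit were Cox7a1 (2.78 CPM) and Cox4i2 (7.17 CPM). All 93 passed the low-count filter that left 19027 genes for testing. By complex, the nuclear class holds 37 names of complex I, 4 of complex II, 8 of complex III, 14 of complex IV and 17 of complex V, and the mitochondrial class 7, 0, 1, 3 and 2. Grouping went by name: Ndufa4 is now counted as a subunit of complex IV, Cox7a2l helps to join complexes into supercomplexes, and Atp5sl is no core subunit of ATP synthase.

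Bulk RNA was sequenced from ovaries of the outbred mouse strain ICR, in 3 groups of 2 libraries. The first group is labelled COH, an abbreviation the labels do not spell out, and carries no model or agent. The second is a model of ovarian hyperstimulation syndrome (OHSS), a complication of hormone stimulation with swollen ovaries and vessels that leak. The third is OHSS with nintedanib (bibf1120), an inhibitor of the receptor kinases for vascular endothelial, platelet-derived and fibroblast growth factors. The sources used here give no hormones, doses, times or ages, and do not say whether a group's libraries are separate animals. Libraries of a group differed by more than counting noise (chi-square per degree of freedom of 35.1 in COH, 81.9 in OHSS and 73.6 with nintedanib). The p-values measure this spread, and the labels do not say how much of it arose in handling or preparation. Total counts ran from 28498435 to 34716751 per library. Granulosa markers (10 genes) summed to 3839 to 6235 CPM, luteal and steroidogenic markers (10 genes) to 25964 to 37915 CPM, and oocyte markers (10 genes) to 184 to 349 CPM, while the adipocyte genes Ucp1 and Lep were at 0 in every library.

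Respiratory complexes are built from parts of 2 genomes. Complex I takes electrons from NADH and complex II from succinate, complex III passes them to cytochrome c, complex IV hands them to oxygen, and complex V (ATP synthase) uses the resulting proton gradient to make ATP. The mitochondrial genome is transcribed as long precursors that are then cut into shorter messages. Some mitochondrial genes overlap on the same strand, such as mt-Atp8 with mt-Atp6 and mt-Nd4l with mt-Nd4. Such pairs cannot be cut into single whole messages, and their counts describe parts of shared RNA. Each nuclear subunit has its own promoter, and complex II is wholly nuclear. In the ovary, mitochondria also carry out the first step of steroid synthesis and are abundant in luteal cells and oocytes.

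The sequences of mt-Atp8, mt-Atp6 and a nuclear copy of the latter are shown because the largest difference among the members rests on reads that can be placed in more than 1 of them. The gene mt-Atp8 lies at chrM:7766-7969 and mt-Atp6 at chrM:7927-8607, both on the plus strand and protein coding. The last 43 bases of the former are the first 43 of the latter, printed in capitals. Gm10925, annotated as an unprocessed pseudogene, lies on the minus strand at chr1:24613974-24614651, and its first 100 bases, like those of mt-Atp6, are given. Coordinates and sequences are those of GENCODE M21 on GRCm38, not of the build named in the submitters' notes.
mt-Atp8: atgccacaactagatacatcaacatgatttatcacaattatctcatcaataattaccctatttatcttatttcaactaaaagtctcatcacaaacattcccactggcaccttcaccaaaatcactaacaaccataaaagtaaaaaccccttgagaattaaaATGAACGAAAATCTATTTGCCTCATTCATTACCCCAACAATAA
mt-Atp6: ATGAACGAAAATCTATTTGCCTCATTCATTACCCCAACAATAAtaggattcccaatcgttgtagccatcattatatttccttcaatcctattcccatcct
Gm10925: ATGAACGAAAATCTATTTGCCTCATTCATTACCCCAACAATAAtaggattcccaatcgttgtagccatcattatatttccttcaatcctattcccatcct

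The mitochondrial class stood higher in OHSS than in COH, the nuclear class stood lower, and no single member passed the main test, that of edgeR. Counts of the 13 mitochondrial genes summed to 49735 and 58419 CPM in COH, 69702 and 71189 CPM in OHSS, and 57084 and 54331 CPM with nintedanib. Both OHSS libraries lay above all others, and the nintedanib libraries lay between the COH libraries. The mean was 54077 ± 6140 CPM in COH, 70446 ± 1052 CPM in OHSS and 55708 ± 1947 CPM with nintedanib (SD, n = 2 each). The ratio of means was thus 1.303 for OHSS over COH and 0.791 for nintedanib over OHSS. Without mt-Atp6, whose counts are uncertain, these ratios were 1.22 and 0.796.

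For the 80 nuclear genes the sums were 10173 and 10508 CPM in COH, 9484 and 8202 CPM in OHSS, and 9341 and 8525 CPM with nintedanib. Here the 4 OHSS and nintedanib libraries all lay below both COH libraries and overlapped each other. The ratio of means was 0.855 for OHSS over COH and 0.864 for nintedanib over COH. Counts of mitochondrial over nuclear members came to ratios of 4.89 and 5.56 for COH, 7.35 and 8.68 for OHSS, and 6.11 and 6.37 for nintedanib. No groups overlapped in this ratio, and the nintedanib libraries held the middle place. Without mt-Atp6 the ratios were 4.81 and 5.46 for COH, 6.77 and 8.03 for OHSS, and 5.74 and 5.86 for nintedanib, again without overlap. The levels per kilobase that follow include mt-Atp6. Per kilobase of exon, the mean level of a mitochondrial member was 48.6 and 54.6 times that of a nuclear member in the COH libraries, 75.5 and 88.5 times in those of OHSS, and 61.4 and 64.9 times in those with nintedanib. In bulk tissue fewer cells of a type and less RNA per cell cannot be told apart.

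**Figure D1:**
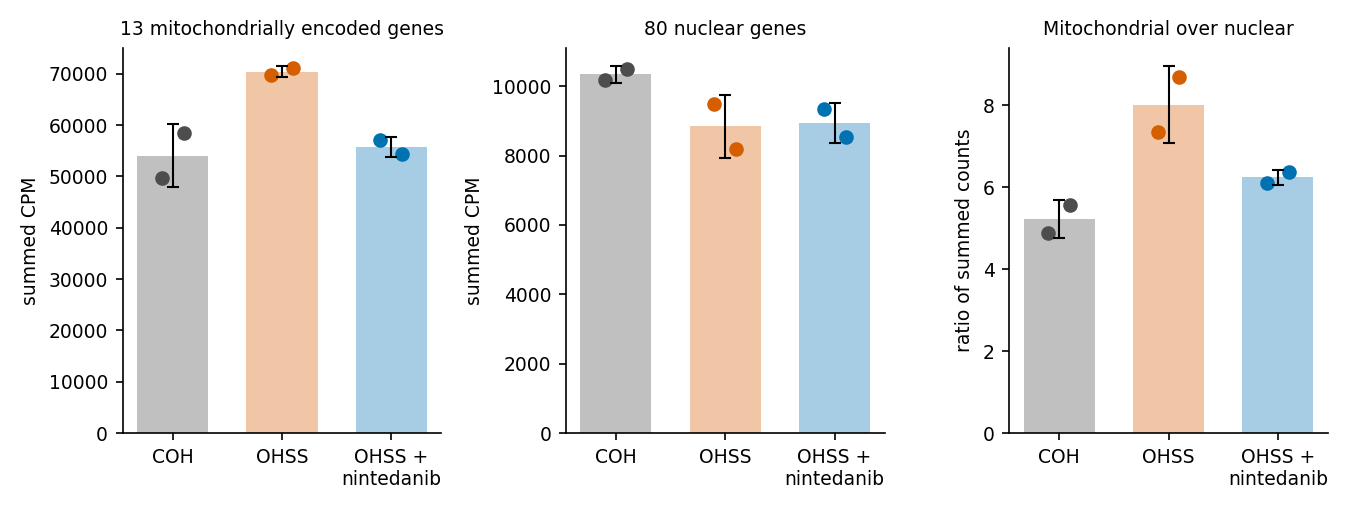
Summed CPM of the 13 mitochondrial members (left) and the 80 nuclear members (middle), and the ratio of their summed counts (right), in each library. Points are libraries, bars the means of 2 libraries and whiskers the SD; both OHSS libraries are highest on the left (69702 and 71189 CPM), and both COH libraries are highest in the middle (10173 and 10508 CPM).

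The summed luteal and steroidogenic markers, like the mitochondrial sum, were highest in OHSS. Their total was 28722 and 30492 CPM in COH and 37244 and 37915 CPM in OHSS. With nintedanib it was 32577 and 25964 CPM, on either side of COH, and none of the 10 was at 0. By gene, 8 had higher and 2 lower means in OHSS than in COH. Of the 10, 5 lay above COH without overlap, where 21.2% of all genes did so. Immediate early genes, which respond to handling, summed to 947 and 1282 CPM in COH, 546 and 726 CPM in OHSS, and 651 and 1423 CPM with nintedanib. Oocyte markers stood at 349 and 243 CPM in COH, 193 and 235 CPM in OHSS, and 184 and 345 CPM with nintedanib. The OHSS libraries were the highest in the first of these lists and lay below both COH libraries in the other 2. Erythroid genes (5), like the nuclear class, were highest in COH, at 219 and 218 CPM in COH, 60.4 and 173 CPM in OHSS, and 156 and 84.0 CPM with nintedanib. Within OHSS the replicate with the lower erythroid sum had the higher nuclear sum, while within nintedanib it had the lower. Granulosa markers were 4776 and 4681 CPM in COH, 3839 and 4433 CPM in OHSS, and 6235 and 5648 CPM with nintedanib. No groups overlapped in this sum, and all 10 genes had higher means with the drug than in OHSS. In OHSS against COH, however, 6 of the 10 were higher and 4 lower. The lower sum in OHSS than in COH rests on Gja1, at 1425 and 1543 CPM in COH and 367 and 934 CPM in OHSS. All 7 macrophage genes had lower means with the drug than in OHSS, at summed levels of 336 and 326 CPM against 510 and 313 CPM. The part of these lists in the differences between the classes was not tested.

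In OHSS against COH, the quasi-likelihood test of edgeR (p-values adjusted by Benjamini and Hochberg) called 0 of the 93 members, where 2 of all genes tested (0.0105%) were called; limma voom also called 0 of them and 0% of all genes. Of the mitochondrial members 12 had a higher and 1 a lower mean, with a median log2 fold change of 0.34, against -0.003 over all genes. At an unadjusted p under 0.05, 5 of 13 were higher, where 4.59% of all genes were, and in 10 of 13 the OHSS libraries lay above the COH libraries without overlap, where 21.2% of all genes did so. Of the nuclear members 4 were higher and 76 lower, with a median of -0.28. Here 24 of 80 were lower at an unadjusted p under 0.05 (4.24% of all genes), 0 were higher, and 60 of 80 lay below without overlap (22.9% of all genes). DESeq2 called 3 members (1.89% of all genes): mt-Atp6 was higher, and Cox7a2l and Atp5g2 were lower. Members share the 6 libraries, and the mitochondrial ones also share precursor transcripts, so these counts are not independent observations. With 2 libraries a group, the smallest two-sided p of an exact permutation test is 0.333, and such tests were not used.

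Among the mitochondrial subunits of complex I, which form its proton-pumping membrane arm, 6 of 7 had higher means in OHSS. The subunit mt-Nd1 (ENSMUSG00000064341, chrM:2751-3707), which lies next to the quinone site, measured 4901 and 5526 CPM in COH, 6441 and 7056 CPM in OHSS, and 4780 and 3881 CPM with nintedanib. Its OHSS libraries lay above and its nintedanib libraries below all others. The log2 fold change was 0.37 (SE 0.17) for OHSS against COH and -0.64 (SE 0.17) for nintedanib against OHSS, with edgeR adjusted p-values of 0.609 and 0.653. For mt-Nd5, a proton-pumping subunit, the levels were 2302 and 2815 CPM in COH, 3320 and 3867 CPM in OHSS, and 2868 and 2723 CPM with nintedanib. Only OHSS stood apart for this gene, with 0.49 (SE 0.16, edgeR adjusted p = 0.542) against COH. The value of the short mt-Nd4l was 0.50 (SE 0.15), and mt-Nd4 (0.34), mt-Nd6 (0.38) and mt-Nd2 (0.24) also had higher means. Without COH replicate 1 these 3 values were 0.20, 0.25 and 0.06.

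The exception was mt-Nd3, which measured 290.5 and 304.1 CPM in COH, 268.5 and 293.6 CPM in OHSS, and 248.1 and 194.2 CPM with nintedanib. COH and OHSS overlapped for this gene (log2 fold change -0.08, SE 0.14), and the nintedanib libraries were the lowest. Per kilobase of exon it was also the least abundant mitochondrial gene, at 766 CPM per kilobase over all libraries, against 14196 for mt-Co1, the highest. The nuclear member highest on that scale was Cox6a1, at 495 CPM per kilobase. Genes mt-Nd5 and mt-Nd6 overlap on opposite strands, and since the use of strand in counting is not given, reads in the overlap cannot be assigned to either.

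Complex III has a single mitochondrial subunit, mt-Cytb, the cytochrome b that carries both quinone sites. It measured 5525 and 6464 CPM in COH, 7491 and 7581 CPM in OHSS, and 6092 and 5580 CPM with nintedanib. OHSS was the highest group without overlap, by 0.33 on the log2 scale (SE 0.16, edgeR adjusted p = 0.615). In complex IV, the catalytic subunit mt-Co1 and the copper-binding mt-Co2, which receives electrons from cytochrome c, each differed by 0.28 in OHSS against COH (0.16 for mt-Co1 without COH replicate 1). The levels of mt-Co2 were 3170 and 3512 CPM in COH, 4058 and 4031 CPM in OHSS, and 3409 and 3375 CPM with nintedanib. In the remaining core subunit, mt-Co3, COH and OHSS overlapped, at 4731 and 5217 CPM against 5291 and 4849 CPM (log2 fold change 0.03, SE 0.14), a direction that turns with scaling by library size only (-0.03). Its nintedanib libraries, at 4353 and 4133 CPM, lay below all others.

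**Figure D2:**
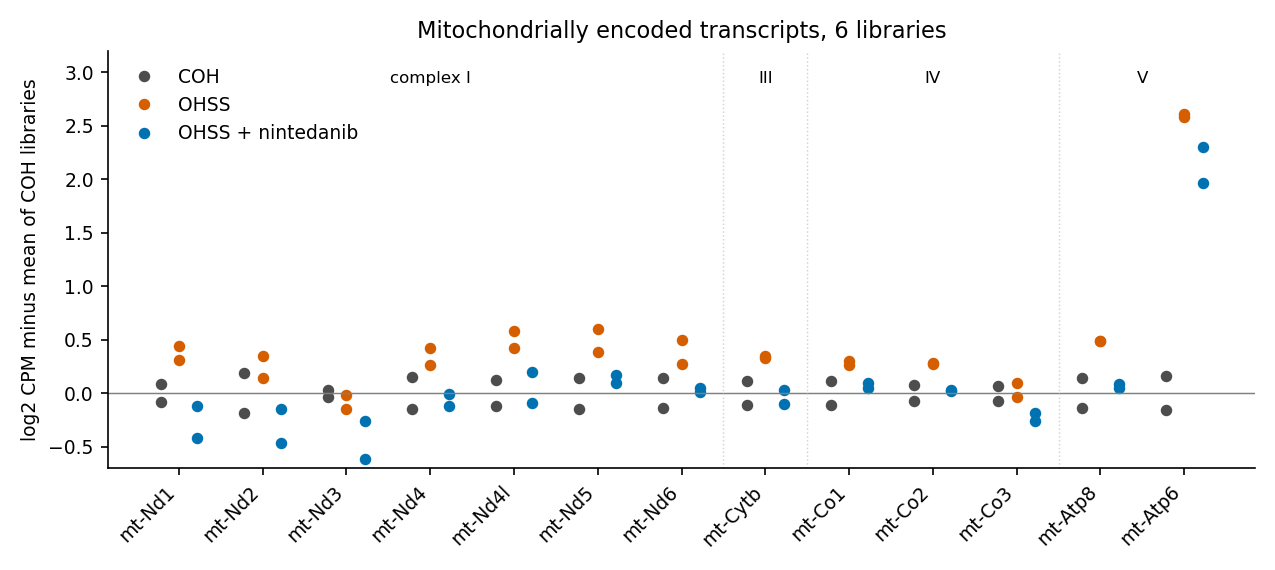
Level of each of the 13 mitochondrially encoded genes in each library, ordered by complex, as log2 CPM minus the mean of the COH libraries (vertical axis). Each point is a library; OHSS lies above COH without overlap in 10 of 13 genes, and mt-Atp6 is the gene farthest from 0.

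In ATP synthase, mt-Atp8 encodes a small membrane subunit and mt-Atp6 the subunit that forms the proton channel. For mt-Atp8 (ENSMUSG00000064356) the levels were 961 and 1172 CPM in COH, 1487 and 1486 CPM in OHSS, and 1127 and 1098 CPM with nintedanib. OHSS exceeded COH by 0.48 (SE 0.13) and nintedanib differed from OHSS by -0.42 (SE 0.13), with edgeR adjusted p-values of 0.533 and 0.653. For mt-Atp6 (ENSMUSG00000064357) they were 802 and 997 CPM in COH, 5454 and 5335 CPM in OHSS, and 3500 and 4403 CPM with nintedanib. No groups overlapped, and COH stood far below the rest. The log2 fold change was 2.58 (SE 0.19) for OHSS against COH and 2.13 (SE 0.19) for nintedanib against COH, with edgeR adjusted p-values of 0.0840 and 0.115, and DESeq2 called both.

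The groups lay closer together in the copy Gm10925. Its levels were 4291 and 5046 CPM in COH, 5891 and 5623 CPM in OHSS, and 4737 and 4550 CPM with nintedanib. Its log2 fold change was 0.30 (SE 0.15, and 0.19 without COH replicate 1) for OHSS against COH and -0.01 for nintedanib against COH, near those of the other mitochondrial genes. Gm10925 matches mt-Atp6 in 678 of 678 aligned bases, as the lines above show for the first 100. Counts of mt-Atp6 were 18.7 and 19.8% of those of Gm10925 for the COH libraries, 92.6 and 94.9% for OHSS, and 73.9 and 96.8% for nintedanib.

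A further 4 mitochondrial genes have a copy of full length or nearly so in the same stretch of chromosome 1, all unprocessed pseudogenes on the minus strand between 24611535 and 24616197. The pairs are mt-Co2 with Gm28661 (681 of 681 aligned bases alike), mt-Co3 with Gm28437 (783 of 783), mt-Nd3 with Gm28438 (344 of 345) and mt-Nd4l with Gm10222 (294 of 294). In all of these the mitochondrial count was 97.7 to 104% of that of the copy in every library. In a further 2 pairs the copy is partial. Counts of mt-Nd4 were 311 and 314% of those of Gm28439 for the COH libraries, 281 and 273% for OHSS, and 282 and 292% for nintedanib, and counts of mt-Co1 were 552 and 548% of those of Gm29216, then 628 and 607%, then 624 and 590%. COH stood apart from the other groups in these ratios too, by much less than in that of mt-Atp6. The sources used here do not say how reads that fit several places were counted, so a change in mt-Atp6 RNA and a change in which of its reads were counted there cannot be told apart. The sum of mt-Atp6 and Gm10925 was 5093 and 6043 CPM in COH, 11345 and 10957 CPM in OHSS, and 8237 and 8954 CPM with nintedanib. It is not known whether a read could count in both rows, so this sum is a description only. With the count of Gm10925 put in place of that of mt-Atp6, the edgeR log2 fold change of OHSS against COH was 0.30. This is by construction the value of Gm10925 itself, so it is no separate check on mt-Atp6. The median of complex V's mitochondrial genes (1.53 for OHSS against COH, 1.10 for nintedanib against COH) rests on mt-Atp6, and was 0.74 and 0.34 when the 2 rows were summed.

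**Figure D3:**
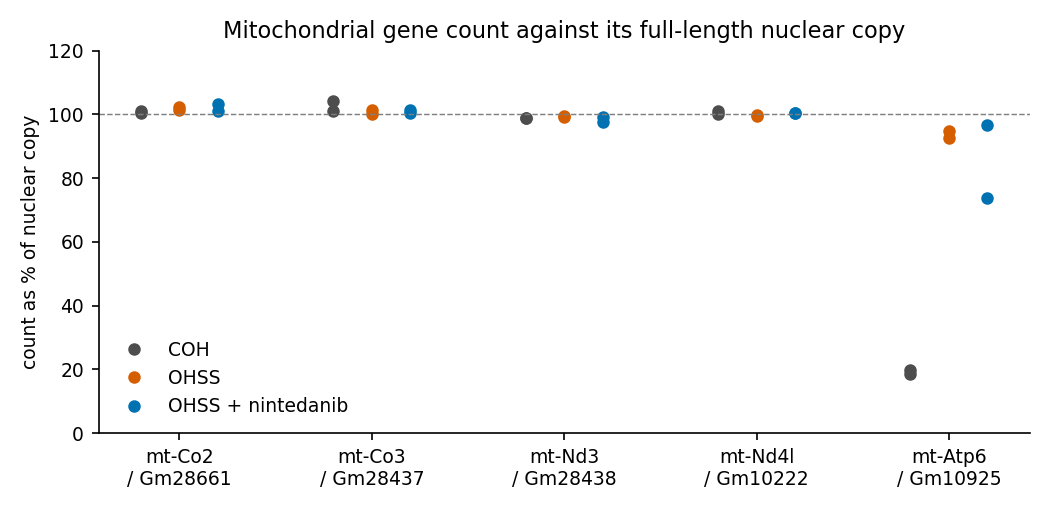
Count of a mitochondrial gene as a percent of the count of its nuclear copy (vertical axis), for the 5 pairs of full length or nearly so; each point is a library. In 4 pairs all libraries lie between 97.7 and 104%, while for mt-Atp6 over Gm10925 the COH libraries lie at 18.7 and 19.8%.

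The promoters of 3 nuclear members are shown because nuclear respiratory genes are known to share a few promoter motifs. These 3 were picked only from members whose promoters hold the motif marked below. Among those, they were chosen for being among the lowest of their complexes in OHSS against COH. They are Atp5g2 (chr15:102670998-102671297), Ndufs6 (chr13:73328433-73328732) and Sdhd (chr9:50603800-50604099), all on the minus strand, from RefSeq on GRCm38.p6, with the match to the palindromic motif of nuclear respiratory factor 1 (NRF1) in capitals.
Atp5g2: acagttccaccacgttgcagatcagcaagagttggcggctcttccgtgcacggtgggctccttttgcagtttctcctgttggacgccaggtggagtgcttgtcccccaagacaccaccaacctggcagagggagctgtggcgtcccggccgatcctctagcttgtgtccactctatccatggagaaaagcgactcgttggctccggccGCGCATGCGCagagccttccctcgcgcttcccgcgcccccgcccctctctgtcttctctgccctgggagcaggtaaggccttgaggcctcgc
Ndufs6: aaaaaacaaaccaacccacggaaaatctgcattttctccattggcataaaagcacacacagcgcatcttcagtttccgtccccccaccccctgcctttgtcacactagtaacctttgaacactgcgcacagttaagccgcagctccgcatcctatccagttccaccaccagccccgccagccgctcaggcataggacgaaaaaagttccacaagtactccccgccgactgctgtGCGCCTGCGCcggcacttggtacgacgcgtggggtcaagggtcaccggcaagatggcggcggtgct
Sdhd: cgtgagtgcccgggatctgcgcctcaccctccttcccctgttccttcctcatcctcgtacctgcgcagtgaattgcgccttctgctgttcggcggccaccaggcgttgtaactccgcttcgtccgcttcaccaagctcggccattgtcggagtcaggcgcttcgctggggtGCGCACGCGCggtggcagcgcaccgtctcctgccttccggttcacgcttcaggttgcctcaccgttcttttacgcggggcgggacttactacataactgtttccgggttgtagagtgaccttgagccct

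RefSeq promoters matched 67 of the 80 nuclear members, with 73 promoters in all. Searched on both strands, the NRF1 motif was in 18 of them (24.66%), against 4.603% of 32851 promoters. The motif of ETS factors, CCGGAAG, was in 16 (21.92%, against 8.858%) and that of YY1, AAGATGGC, in 12 (16.44%, against 2.749%). The search allowed no mismatch, and the motifs may overlap each other. In OHSS against COH the 17 genes with the NRF1 motif had a median log2 fold change of -0.26 and the 50 without it -0.28. The medians were -0.24 with and -0.29 without the ETS motif, and -0.33 with and -0.26 without the YY1 motif. These differences were not tested. Atp5j2, Cox7a2l, Uqcr10 and Ndufb8, also among the lowest of their complexes in that comparison, had no NRF1 match. The promoter of Ndufs6 printed above also holds a YY1 match and that of Sdhd an ETS match, neither of them in capitals. A match describes the letters of the window and is not evidence of binding.

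In the nuclear part of complex I, 35 of 37 members had lower means in OHSS than in COH, with a median of -0.29. Ndufs6, a zinc-binding accessory subunit, had the lowest value: it measured 31.3 and 41.3 CPM in COH, 26.6 and 28.9 CPM in OHSS, and 34.6 and 35.4 CPM with nintedanib. OHSS was the lowest group without overlap, by -0.39 (SE 0.16, edgeR adjusted p = 0.585), and nintedanib lay within the range of COH. Without COH replicate 2 the value was -0.17. Next to it in size was Ndufb8, an accessory subunit of the membrane arm (-0.38, SE 0.15, and -0.24 without OHSS replicate 2). The highest value was that of the accessory subunit Ndufa12 (0.16, SE 0.26), with OHSS libraries at 109 and 65.1 CPM on either side of COH (69.0 and 87.0 CPM); without OHSS replicate 1 it was -0.25.

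Complex II, which is also an enzyme of the tricarboxylic acid cycle, differed by -0.15 in the median of its 4 genes, by -0.25 without OHSS replicate 1 and by -0.09 without COH replicate 2. The membrane anchor Sdhd measured 110 and 107 CPM in COH, 93.8 and 83.5 CPM in OHSS, and 98.6 and 91.6 CPM with nintedanib, so that COH was the highest group (-0.29, SE 0.11, edgeR adjusted p = 0.545). The other anchor, Sdhc, differed by -0.23. The iron-sulfur subunit Sdhb had a mean 0.07 above COH on the log2 scale, which came from OHSS replicate 1: its levels were 154 and 154 CPM in COH, 194 and 127 CPM in OHSS. Without that library the value was -0.26.

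All 8 nuclear genes of complex III had lower means in OHSS, with a median of -0.20. For Uqcr10, a small subunit, the levels were 99.3 and 97.5 CPM in COH, 88.1 and 66.8 CPM in OHSS, and 91.9 and 75.1 CPM with nintedanib. COH was the highest group without overlap (-0.34, SE 0.17, edgeR adjusted p = 0.623), while the OHSS libraries spread more widely than the difference between group means of OHSS and nintedanib. Another small subunit, Uqcrq, differed by -0.26 and the core subunit Uqcrc1, which had the highest level of the complex, by -0.19. Without OHSS replicate 2 the value of Uqcr10 was -0.17 and that of Uqcrc1 -0.095, and without OHSS replicate 1 they were -0.55 and -0.29.

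In complex IV all 14 nuclear genes had lower means in OHSS, 13 of them without overlap (22.9% of all genes), with a median of -0.31. Cox7a2l, the supercomplex factor, measured 137 and 134 CPM in COH, 104 and 100.2 CPM in OHSS, and 106 and 104 CPM with nintedanib. The spread within each group was small beside the step from COH to the other groups. The log2 fold change of OHSS against COH was -0.41 (SE 0.09), with an edgeR adjusted p of 0.487 and a DESeq2 adjusted p of 0.00883. The gene nearest to 0 was Cox7b (-0.10, SE 0.10).

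Tissue-restricted isoforms replace the common subunits in particular cells, and 5 of the 8 listed were tested, 4 of them members. Cox7a1, the heart and muscle isoform, measured 2.95 and 4.06 CPM in COH, 1.64 and 2.31 CPM in OHSS, and 3.05 and 2.65 CPM with nintedanib. It had the lowest value of all members in OHSS against COH, at -0.83 (SE 0.33, edgeR adjusted p = 0.565), at a level close to the limit for members. Cox6b2, a testis isoform, differed by -0.42, Cox4i2, an isoform known for oxygen-dependent expression, by -0.39, and Ndufa4l2, known to be induced by low oxygen, by -0.30. The OHSS libraries of these 4 genes lay below COH without overlap, as did 22.9% of all genes. The remaining isoform tested, Cox6a2, overlapped and had a higher value in OHSS (0.08), at 0.907 CPM, under the limit for members.

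In complex V 16 of 17 nuclear genes had lower means in OHSS, with a median of -0.24, which moved to -0.11 when OHSS replicate 2 was left out and to -0.38 when replicate 1 was. Atp5g2, 1 of the genes for the c subunit that forms the rotating ring, measured 183 and 190 CPM in COH, 142 and 129 CPM in OHSS, and 140 and 148 CPM with nintedanib. Its log2 fold change was -0.46 (SE 0.10), with an edgeR adjusted p of 0.477 and a DESeq2 adjusted p of 0.0143. The value of Atp5j2, the f subunit of the membrane part, was larger (-0.62, SE 0.18), with 164 and 158 CPM in COH, 106 and 104 CPM in OHSS, and 141 and 97.7 CPM with nintedanib. The catalytic beta subunit Atp5b, the most abundant nuclear member by CPM, overlapped between groups, at 886 and 936 CPM in COH and 989 and 729 CPM in OHSS (-0.08, SE 0.18, and 0.11 without OHSS replicate 2). Many nuclear respiratory genes have processed copies elsewhere in the genome, and their counts are uncertain to the extent that reads were shared with them.

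**Figure D4:**
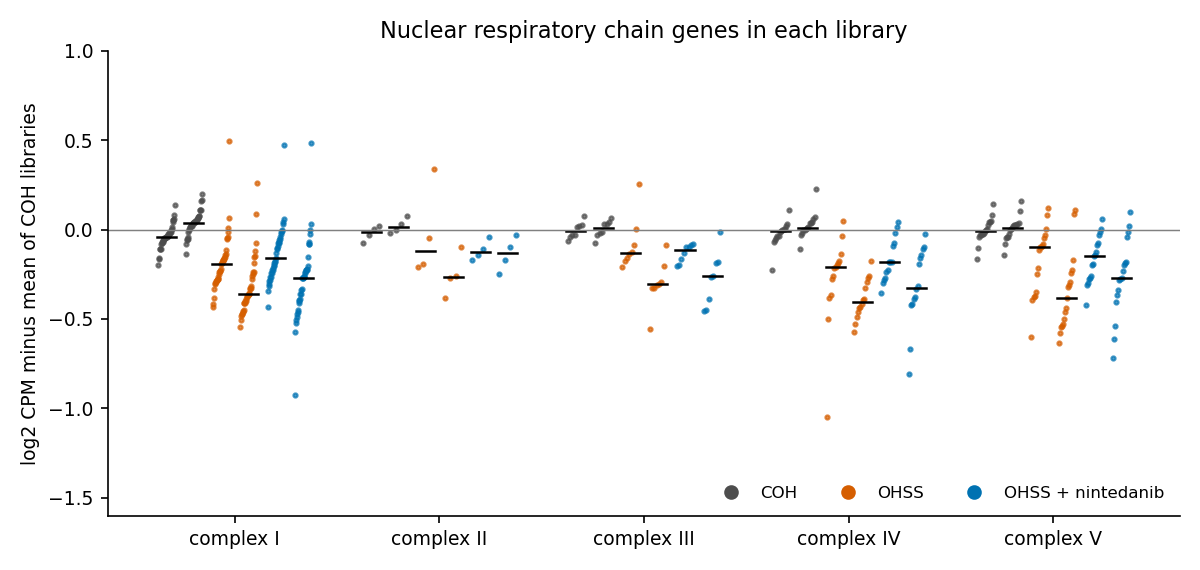
Level of each nuclear member in each library, as log2 CPM minus the mean of the COH libraries (vertical axis), by complex, with libraries in the order COH, OHSS, OHSS with nintedanib and replicate 1 before 2. Points are genes and black lines medians; the OHSS and nintedanib medians lie below 0 in all 5 complexes, and OHSS replicate 2 lies lower than replicate 1 in each.

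The OHSS libraries differed between themselves in the nuclear class. The median log2 distance of the 80 nuclear genes from the COH mean was -0.18 in OHSS replicate 1 and -0.36 in replicate 2, and -0.15 and -0.27 in the nintedanib libraries, against values from -0.006 to 0.004 over all genes tested. In the mitochondrial class it was 0.30 and 0.42 in OHSS. The COH libraries also differed: all 13 mitochondrial genes were higher in COH replicate 2 than in replicate 1, with median distances of 0.12 and -0.12 from their mean. With COH replicate 1 left out, the mitochondrial median of OHSS against COH was 0.22, and with OHSS replicate 2 left out the nuclear median was -0.19.

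Nintedanib against OHSS asks whether the drug is accompanied by a difference within the model. All 13 mitochondrial members had lower means with the drug, with a median log2 fold change of -0.37 against 0.01 over all genes, and the nuclear class had 48 members higher and 32 lower, with a median of 0.05, which was -0.03 without OHSS replicate 2 or nintedanib replicate 1. edgeR called 0 of the 93 members, where 0.00526% of all genes were called, and limma voom 0 members, where it called 0.00526%. All 13 mitochondrial genes lay below OHSS without overlap, as did 6 of 80 nuclear genes, where 16.9% of all genes did so, and 13 of 80 nuclear genes lay above (19.2% of all genes). At an unadjusted p under 0.05 4 mitochondrial and 0 nuclear members were lower (3.47% of all genes) and 2 nuclear members higher (3.95%). DESeq2 called mt-Nd1 (DESeq2 adjusted p = 0.0258) and no other member (1.17% of all genes). This comparison shares its OHSS libraries with the one against COH, so a high or low OHSS value enters both with opposite signs.

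By complex, the mitochondrial medians of nintedanib against OHSS were -0.41 in complex I, -0.37 in III, -0.25 in IV and -0.43 in V. After mt-Nd1, the lowest value was that of mt-Nd2 (-0.55, SE 0.20), a proton-pumping subunit, at 3925 and 4516 CPM in OHSS and 3199 and 2571 CPM with the drug. The values of the other genes of complex I were -0.44 for mt-Nd4l, -0.41 for mt-Nd4, -0.36 for mt-Nd5, -0.36 for mt-Nd6 and -0.35 for mt-Nd3 (-0.18 without nintedanib replicate 2 and -0.54 without replicate 1). In complexes III and IV they were -0.37 for mt-Cytb, -0.26 for mt-Co3, -0.25 for mt-Co2 and -0.21 for mt-Co1. For mt-Atp6 the value was -0.45 (-0.30 without nintedanib replicate 1), and for its copy Gm10925 -0.31, so that the 2 differ less here than in the comparisons with COH. Each mitochondrial gene was thus lower on average with the drug, whichever complex it belongs to.

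The nuclear medians of that comparison lay between -0.01 in complex III and 0.08 in complex V, and their signs depend on single libraries. Without nintedanib replicate 1 the median of complex V was -0.06, and without OHSS replicate 1 that of complex IV was 0.18. The highest value in complex I was that of Ndufa5, an accessory subunit of the matrix arm, which measured 15.9 and 19.2 CPM in OHSS and 25.2 and 25.3 CPM with nintedanib, beside 17.5 and 18.7 CPM in COH. The drug group stood above both others (0.52 against OHSS, SE 0.15, edgeR adjusted p = 0.653; 0.48 against COH). In the opposite direction, Ndufa4 differed by -0.41 (SE 0.17), with 65.3 and 89.0 CPM in OHSS and 59.6 and 56.3 CPM with the drug; the value moved to -0.17 when OHSS replicate 2 was left out and to -0.64 when replicate 1 was. Cox6c, an accessory subunit of complex IV, measured 121 and 116 CPM in OHSS, 144 and 136 CPM with nintedanib, and 145 and 147 CPM in COH, a difference of 0.24 (SE 0.09) against OHSS. The isoforms Cox7a1 (0.53) and Cox6b2 (0.34) were also without overlap and higher than in OHSS, and Cox8a (-0.13) lower. In complex V the ends of the range were Atp5g3, another gene for the c subunit (0.27), and Atp5c1, the gamma subunit of the rotor (-0.17), and in complex II the lowest was Sdhb (-0.20, and 0.11 without OHSS replicate 1). Over the libraries left out, Cox7a1 ran from 0.29 (without OHSS replicate 1) to 0.80 (without OHSS replicate 2), Atp5g3 from 0.12 (without OHSS replicate 2) to 0.43 (without OHSS replicate 1), and Atp5c1 from -0.30 to -0.05 (without nintedanib replicates 1 and 2).

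**Figure D5:**
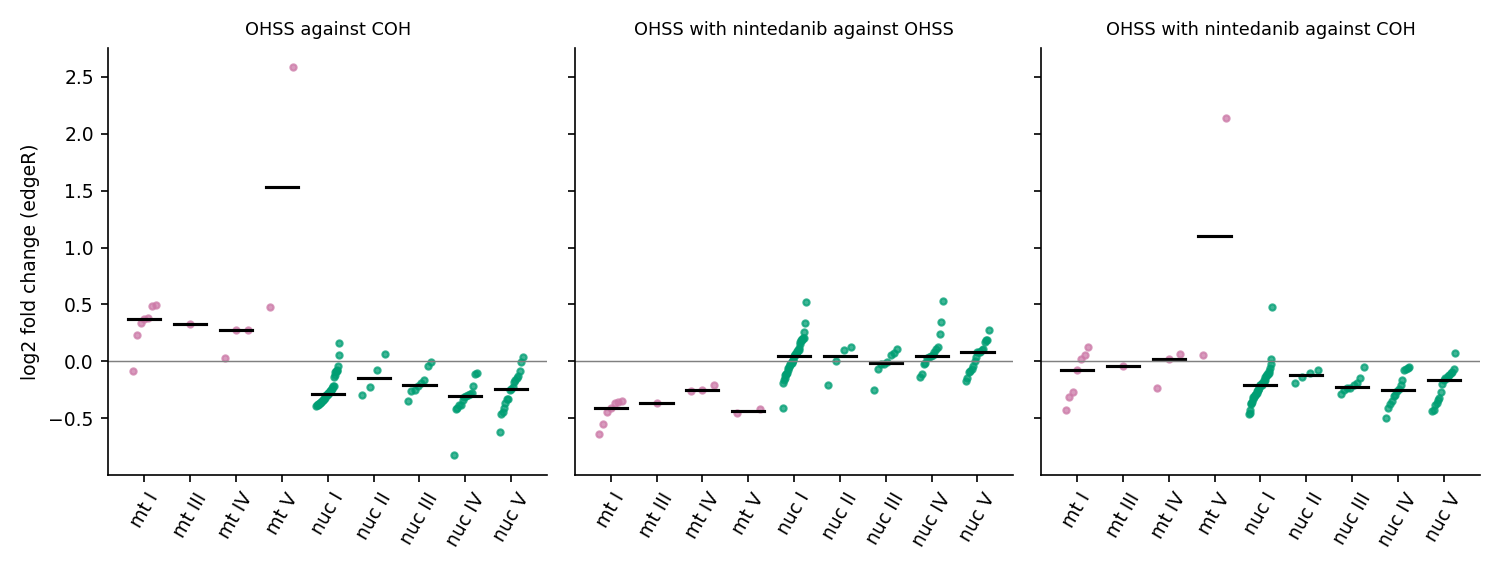
Log2 fold change of each member from edgeR (vertical axis), by class and complex (mt, mitochondrial; nuc, nuclear), in the 3 comparisons; points are genes and black lines medians. Mitochondrial medians are above 0 and nuclear medians below 0 on the left, all 13 mitochondrial genes are below 0 in the middle, and on the right the nuclear medians are below 0 while that of the mitochondrial class is 0.02.

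Nintedanib against COH shows where the drug group stood relative to the reference. The mitochondrial class had 7 members higher and 6 lower, with a median of 0.02. Without mt-Atp6, 6 were higher and 6 lower, with a median of -0.008. The nuclear class had 3 higher and 77 lower, with a median of -0.21, against -0.001 over all genes. edgeR called 0 of the 93 members, where 0.0263% of all genes were called, and limma voom 0, where it called 0.0105%. In the nuclear class 56 of 80 genes lay below COH without overlap (22.7% of all genes) and 2 above (22.3%). In the mitochondrial class 3 of 13 lay below, near the share over all genes, and 1, mt-Atp6, above. At an unadjusted p under 0.05, 11 nuclear and 1 mitochondrial members were lower (4.08% of all genes). In each class 1 member was higher (5.62%), which was mt-Atp6 in the mitochondrial class. DESeq2 called mt-Atp6, Ndufc2 and Cox7a2l (2.36% of all genes). The difference between the class medians, mitochondrial minus nuclear, was 0.62 in OHSS against COH, -0.42 in nintedanib against OHSS and 0.23 in nintedanib against COH, and the last was 0.11 without COH replicate 1.

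The mitochondrial genes below COH without overlap were mt-Nd3 (-0.43, SE 0.14, edgeR adjusted p = 0.494), mt-Nd1 (-0.27) and mt-Co3 (-0.23), while mt-Nd2 (-0.31) overlapped. In the nuclear class Ndufc2, an accessory subunit of complex I, measured 113 and 120 CPM in COH, 87.2 and 92.4 CPM in OHSS, and 86.1 and 84.3 CPM with nintedanib. Its log2 fold change of nintedanib against COH was -0.45 (SE 0.10), with an edgeR adjusted p of 0.430 and a DESeq2 adjusted p of 0.0109. Cox5a, an accessory subunit of complex IV, had 141 and 135 CPM in COH, 115 and 95.5 CPM in OHSS, and 117 and 78.5 CPM with nintedanib (-0.50, SE 0.21). Both genes were highest in COH, and the nintedanib libraries lay far apart for Cox5a but not for Ndufc2. The other values were -0.46 for Ndufa4l2, -0.43 for Atp5j2, -0.42 for Atp5c1, -0.41 for Cox4i2, -0.38 for Atp5g2, -0.37 for Cox7a2l, -0.28 for Uqcrq and -0.19 for Sdhd. Several rest on nintedanib replicate 2: without it, the value was -0.24 for Cox5a, -0.11 for Ndufa4l2, -0.19 for Atp5j2, -0.18 for Cox4i2, -0.13 for Uqcrq, -0.26 for mt-Nd3 and -0.13 for mt-Nd1. Without nintedanib replicate 1 these were larger, up to -0.93 for Ndufa4l2, and Atp5c1 was -0.26 without COH replicate 2. For mt-Nd2 the values ran from -0.49 (without COH replicate 1) to -0.12 (without COH replicate 2).

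Genes that build and serve the chain were taken from lists outside the members, and edgeR called none of them in any of the 3 comparisons. Of 46 assembly factors, 17 had higher and 29 lower means in OHSS against COH, with a median of -0.09. The highest among those with at least 5 CPM was Cox18, which inserts a complex IV subunit into the membrane, at 17.4 and 29.1 CPM in COH and 32.5 and 30.8 CPM in OHSS (0.45), which was 0.12 without COH replicate 1 and 0.87 without COH replicate 2. Sco2, which delivers copper to complex IV, measured 11.2 and 12.5 CPM in COH, 9.48 and 8.38 CPM in OHSS, and 6.63 and 5.95 CPM with nintedanib. Its groups stepped down without overlap, by -0.51 for nintedanib against OHSS and -0.91 for nintedanib against COH (edgeR adjusted p = 0.384), and DESeq2 called the latter.

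Among 17 genes of electron carriers and coenzyme Q synthesis, 7 were higher and 10 lower in OHSS against COH (median -0.07). Coq8a, needed for coenzyme Q synthesis, measured 45.5 and 63.4 CPM in COH and 39.8 and 27.8 CPM in OHSS (-0.69, and -0.43 without COH replicate 2). The 16 genes of the tricarboxylic acid cycle had a median of -0.03, with 6 higher and 10 lower. The lowest was Fh1, the fumarase, at 92.9 and 96.6 CPM in COH, 82.1 and 73.2 CPM in OHSS, and 73.8 and 75.4 CPM with nintedanib (-0.29 for OHSS and -0.35 for nintedanib, each against COH). The medians of these lists lay closer to 0 than that of the nuclear members; this difference was not tested.

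Lists of genes acting on mitochondrial DNA and RNA had medians at or below 0 in OHSS against COH. The 15 genes of mitochondrial DNA transcription and replication had 7 higher and 8 lower in OHSS against COH, with a median of -0.01. Polg, the catalytic subunit of the mitochondrial DNA polymerase, measured 46.5 and 39.9 CPM in COH, 44.8 and 43.2 CPM in OHSS, and 63.3 and 58.8 CPM with nintedanib. The drug group was the highest, by 0.50 against COH (edgeR adjusted p = 0.462), which DESeq2 called. Of 19 genes for processing and stability of mitochondrial RNA, 5 were higher and 14 lower in OHSS against COH (median -0.13). Pnpt1, a ribonuclease of mitochondria, had the highest value (0.47, and 0.14 without OHSS replicate 1), with 41.7 and 43.6 CPM in COH and 71.5 and 46.4 CPM in OHSS, and Lrpprc, which stabilizes mitochondrial messages, the highest in nintedanib against OHSS (0.37, and 0.18 without nintedanib replicate 2). Of 12 nuclear regulators of mitochondrial genes, 5 were higher and 7 lower in OHSS against COH, with a median of -0.10.

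The ribosomal and transfer RNAs of the mitochondrial genome, 16 of 24 of which were tested, had a median of -0.07 in OHSS against COH, with 7 higher and 9 lower, beside 0.34 for the mitochondrial messages. The small ribosomal RNA mt-Rnr1 measured 489.7 and 592.9 CPM in COH, 479.8 and 592.0 CPM in OHSS, and 485.9 and 656.9 CPM with nintedanib. The large one, mt-Rnr2, stood at 537.4 and 592.0 CPM, 529.9 and 685.7 CPM, and 437.2 and 698.8 CPM in the same order. In both genes the groups overlapped, and replicate 2 was the higher library of each group. Their level depends on how ribosomal RNA was removed or messages were selected, on which the labels are silent.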

How the data were processed

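The authors deposited raw whole-number counts per gene for 6 libraries, per the file headers, and a read summary per library. Genome build mm8 and the tools StringTie 1.3.3b, HISAT2 2.1.0 and Trimmomatic 0.36 are listed, per the submitters' processing notes; the sources used here do not give the counting program, annotation release, use of strand or handling of reads that fit several places. Counts equal 72.1 to 74.0% of the reads and 144 to 148% of the read pairs, so a pair appears to be counted as 2 reads.

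Groups came from the sample titles. Counts were filtered (filterByExpr), scaled (TMM) and tested in 1 fit of 3 groups with edgeR 4.0.16 (R 4.3.3), using the two-sided quasi-likelihood F test and Benjamini-Hochberg adjustment over 19027 genes, called below 0.05. CPM uses the effective library size; SE derives from the F statistic. Summed levels and medians over members are descriptions without a test. Exon lengths are unions of annotated exons in GENCODE M21, which held 51633 of 51826 gene IDs; long rare exons lower a level per kilobase. DESeq2 1.42.0, limma 3.58.1 (voom), other scalings and filters, a replicate block and leaving out each library were alternatives; replacing mt-Atp6 by Gm10925 and removing the nuclear copies were added after seeing the data. The test was also tried on simulated data.

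The members and lists were chosen with earlier results of these data known. Named genes are all mitochondrial members, and, among nuclear members of each complex, the 2 highest and 2 lowest fold changes per comparison with at least 5 CPM, the most abundant member, the tissue-restricted isoforms, and the highest and lowest of each other list; not all genes that the rule allows are named or reported here. Cox7a2l and Atp5g2 in nintedanib against COH, mt-Rnr1 and mt-Rnr2 were named after their values were seen.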

Additional observations from a re-analysis of the deposited data

How the results depend on the processing

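With 2 libraries a group, depth does not limit these abundant genes, but their spread is poorly known. Over 22 alternatives, both class medians of OHSS against COH, and the mitochondrial median of nintedanib against OHSS, kept their direction. Not all of these could move each median: leaving out mt-Atp6 kept the main fit and so could not change a nuclear median. The nuclear median of nintedanib against OHSS lay between -0.03 (a library left out) and 0.12. In nintedanib against COH the mitochondrial median ran from -0.11 (without COH replicate 1) to 0.093 (without COH replicate 2), and the class difference from 0.11 to 0.30; the cause was not tested. Members called were 3, 1 and 3 with DESeq2 in the order of the comparisons, 1 in each comparison with COH when no filter was used, and 0 to 1 in nintedanib against COH over the libraries left out (1 without nintedanib replicate 1).

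Values near 0 turned in sign. In OHSS against COH, mt-Co3 was -0.034 with library size only and ran from -0.041 to 0.10 over the libraries left out, Ndufa12 from -0.25 to 0.48, Sdhb from -0.26 to 0.33 and Atp5b from -0.31 to 0.11. In nintedanib against OHSS, Sdhb ran from -0.47 to 0.11. In nintedanib against COH, Gm10925 was 0.0036 with library size only and 0.00081 with a filter at a mean of 5 CPM. Over the libraries left out it ran from -0.12 to 0.11. The cause of these turns was not tested. The main value of mt-Atp6 in that comparison, 2.13, is not near 0. With the count of Gm10925 in its place it was -0.0076, which is by construction the value of Gm10925.

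The labels do not say that equal replicate numbers pair the libraries. Deviations of same-numbered libraries correlated at -0.0007 (COH and OHSS), 0.048 (COH and nintedanib) and -0.002 (OHSS and nintedanib) over all genes tested, and at 0.32, 0.027 and -0.076 over the 93 members. With the replicate block, 0 members were called in each of the 3 comparisons, the mitochondrial and nuclear medians of OHSS against COH were 0.34 and -0.28, and no call changed.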
